A study of Mus musculus with 15 samples.

Results

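Liver answers to insulin and growth hormone through a small set of receptors, adaptors and secreted proteins, and 10 of their genes are described here by the H3K4me3 at their promoters. These genes were Ghr, Socs2, Igf1, Igfbp1, Igfbp2, Insr, Irs1, Irs2, Akt2 and Foxo1, chosen by name out of 21755 protein-coding genes. An island, the name SICER2 gives a region enriched for reads, was assigned to a gene when it lay within 1 kb of any of the gene's annotated transcription start sites (TSSs). Of the 10 genes, 4 had such an island in the livers of all 15 mice, and the remaining 6 had one in 11 to 14 of the 15.

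The mice were C57BL/6 females (C57BL/6J in the study's methods) without a described genetic change, 3 on each of 5 diets, with 1 liver library per mouse. The standard diet (SD), the high-fat diet (HF), the yellow corn diet (YD) and the purple corn diet, called Red diet (RD), were given ad libitum, while the mice under caloric restriction (CR) received a reduced amount of the standard food. YD and RD were the standard food with its maize replaced by seed powder of near-isogenic corn without (YD) or with (RD) anthocyanins, and these 3 foods did not differ in energy content. Diets began at 3 months of age and lasted 10 months, whereas the sample labels state an age of 12 months. Each library came from 4 sections of formalin-fixed, paraffin-embedded liver (PAT-ChIP), so it holds whole tissue, in which fewer cells of a type and less of the mark per cell cannot be told apart. Since the samples are separate mice, the p-values below measure the spread between mice.

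Growth hormone binds its receptor GHR on hepatocytes, which signals through the JAK2 kinase and STAT5 to genes such as Igf1 and Socs2. Insulin acts through its receptor INSR, the adaptors IRS1 and IRS2 and the kinase AKT2, which in liver keeps the transcription factor FOXO1 out of the nucleus. H3K4me3 is a histone mark found around the start sites of active and poised genes, and at highly used genes it often spreads far into the transcribed region.

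The sequences around the start sites show how differently these promoters are built. RefSeq windows on GRCm38.p6, from 250 bases before to 50 after a start site, were matched for 8 of the 10 genes. Insr and Socs2 had no window. Those of Igf1, Igfbp1, Foxo1 and Irs2 are printed as examples of low and high CG content. They do not span the full range, since an Akt2 window that is not printed held 0 CGs. RefSeq places the Irs2 start upstream of the GENCODE start used for the islands, and the Igf1 window belongs to one of its downstream starts. CG dinucleotides are in capitals and each window is given 5′ to 3′ on the gene's strand. They lie at chr10:87860861-87861160 (+ strand), chr11:7197537-7197836 (+ strand), chr3:52268087-52268386 (+ strand) and chr8:11008880-11009179 (- strand).
Igf1: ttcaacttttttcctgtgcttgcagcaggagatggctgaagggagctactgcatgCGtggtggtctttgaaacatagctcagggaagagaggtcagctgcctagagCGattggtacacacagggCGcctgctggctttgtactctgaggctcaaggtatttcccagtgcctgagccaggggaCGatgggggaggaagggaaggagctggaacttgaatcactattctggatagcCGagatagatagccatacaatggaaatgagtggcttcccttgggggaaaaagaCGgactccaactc
Igfbp1: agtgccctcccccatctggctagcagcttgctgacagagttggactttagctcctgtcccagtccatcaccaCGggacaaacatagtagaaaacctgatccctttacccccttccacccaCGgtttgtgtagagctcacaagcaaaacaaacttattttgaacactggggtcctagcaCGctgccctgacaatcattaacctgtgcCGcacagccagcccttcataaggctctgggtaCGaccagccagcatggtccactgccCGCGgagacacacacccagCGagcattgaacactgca
Foxo1: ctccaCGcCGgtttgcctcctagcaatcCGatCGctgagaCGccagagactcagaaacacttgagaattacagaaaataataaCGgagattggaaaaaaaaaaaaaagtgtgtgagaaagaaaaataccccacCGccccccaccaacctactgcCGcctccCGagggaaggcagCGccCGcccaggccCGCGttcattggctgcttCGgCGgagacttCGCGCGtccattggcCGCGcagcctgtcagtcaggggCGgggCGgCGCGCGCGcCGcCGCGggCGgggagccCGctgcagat
Irs2: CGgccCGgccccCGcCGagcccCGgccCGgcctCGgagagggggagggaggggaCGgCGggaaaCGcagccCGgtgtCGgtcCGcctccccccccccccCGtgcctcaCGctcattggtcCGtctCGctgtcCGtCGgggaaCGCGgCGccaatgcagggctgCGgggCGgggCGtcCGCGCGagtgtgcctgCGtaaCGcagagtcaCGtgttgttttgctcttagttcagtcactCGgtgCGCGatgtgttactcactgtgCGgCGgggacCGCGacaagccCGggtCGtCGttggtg

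The Igf1 window held 6 CGs and the Igfbp1 window 8, against 31 for Foxo1 and 41 for Irs2 and a median of 14 over 20061 windows. Among the 16433 genes with a window, those with 5 to 9 CGs had an island in 2.93 libraries on average and 13.3% of them had one in at least 11 libraries. Igf1 (15 libraries) and Igfbp1 (11 libraries) belong to that class by CG count. Genes with 30 or more CGs averaged 9.18 libraries, and Foxo1 (13 libraries) and Irs2 (14 libraries) fall in this class. Over all genes with a window the mean number of libraries rose with CG count, from 1.17 for 0 to 4 CGs. The 4 single windows did not follow that order. They lie at different places relative to the GENCODE starts, so their overlaps do not compare CG content alone. The Irs2 window, the richest of the 4 in CG, overlapped an island in only 5 libraries, with most Irs2 islands beginning downstream of it, while the Igf1 window overlapped one in 13, the Foxo1 window in 11 and the Igfbp1 window in 10.

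The insulin response sequence, searched as CAAAACA on both strands, was present in the windows of 3 of the 8 matched genes, Igfbp1, Irs1 and Irs2, and in 5.14% of all windows. FOXO1 binds such sequences, which is why these sites are shown, with the motif or its reverse complement in capitals. A match is a description of the letters and not evidence of binding. The Igfbp1 site lies at chr11:7197669-7197695 (+ strand), 108 bases before the start site. Irs1 has sites at chr1:82291455-82291481 and chr1:82291534-82291560 (- strand), 32 and 111 bases before its start, and Irs2 at chr8:11008950-11008976 (- strand), 37 bases before its RefSeq start.
Igfbp1 site: agctcacaagCAAAACAaacttatttt
Irs1 site near the start: agccgccgctTGTTTTGgttggggctc
Irs1 upstream site: ctccgtcacgTGTTTTGctcctctgga
Irs2 site: agtcacgtgtTGTTTTGctcttagttc

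The other motifs were sparse. TTCNNNGAA, the STAT5 motif, was found in the Akt2 windows alone among the 8 genes (7.76% of all windows), TATAAA in the Ghr windows (12.1%), and GTAAACA, a FOXO and FOXA motif, in none of them (2.97%). Insr and Socs2, which had no window, were not searched, and Igf1 was searched only in the window of a downstream start. None of these windows was read for any factor's binding in these data.

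The lists held 7825 to 33752 islands, the reads behind them, as recovered from the steps of the score, numbered about 5590000 to 13980000 (YD_1, whose steps gave no whole number, is left out), and 17.5% to 54.6% of protein-coding genes had an island. YD_1 (26.8) and RD_2 (23.3) had the highest scores for their weakest island. The labels give no batch, but CR_1, CR_2, HF_2, HF_3 and RD_1 carry PATChIP in their library names and the other 10 libraries carry ChIP. Of 8 hepatocyte markers, 5 to 8 had an island in each library. Markers of other liver cells had few, with Kupffer cell markers at 0 to 3 of 6 genes, endothelial 0 to 6 of 6, stellate 0 to 3 of 6, bile duct 0 to 2 of 5 and lymphocyte 0 to 1 of 6 per library. Vsig4, Timd4, Marco, Col1a1, Epcam, Krt19, Spp1, Cd3e, Cd8a, Cd79a and Ms4a1 had no island in any library.

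Each gene is described by a pair of values per mouse. The score percentile is the place of the gene's highest-scoring island within its own list (100 is the highest score, 0 stands for no island), since scores are not scaled between lists. The width is the summed length in kb of the islands at the gene's TSSs, in steps of 0.2 kb. A SICER score adds up over an island, so wide islands tend to have high percentiles and the measures are not independent.

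Over all 15 mice the mean percentile ran from 95.2 ± 4.36 (SD, n = 15) for Igf1 through 89.7 ± 9.95 for Insr, 82.4 ± 28.1 for Irs2, 82.3 ± 18.8 for Ghr, 81.3 ± 34.7 for Foxo1 and 73.9 ± 19.3 for Irs1. The lower group was Igfbp1 at 56.7 ± 37.2, Igfbp2 at 56.1 ± 25.4, Socs2 at 55.8 ± 37.6 and Akt2 at 50.9 ± 30.9. No neighbours in this order differed by more than the larger of their SDs. Igf1 stood above 98.6% of the 13044 protein-coding genes with an island in at least 1 library, and Akt2 above 60.1%. By mean width the order changed, with Irs2 widest at 4.44 kb (above 98.3% of those genes), Igf1 at 4.24 kb (97.9%) and Foxo1 at 3.51 kb (95.8%), down to Akt2 at 1.35 kb (52.7%).

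**Figure D1:**
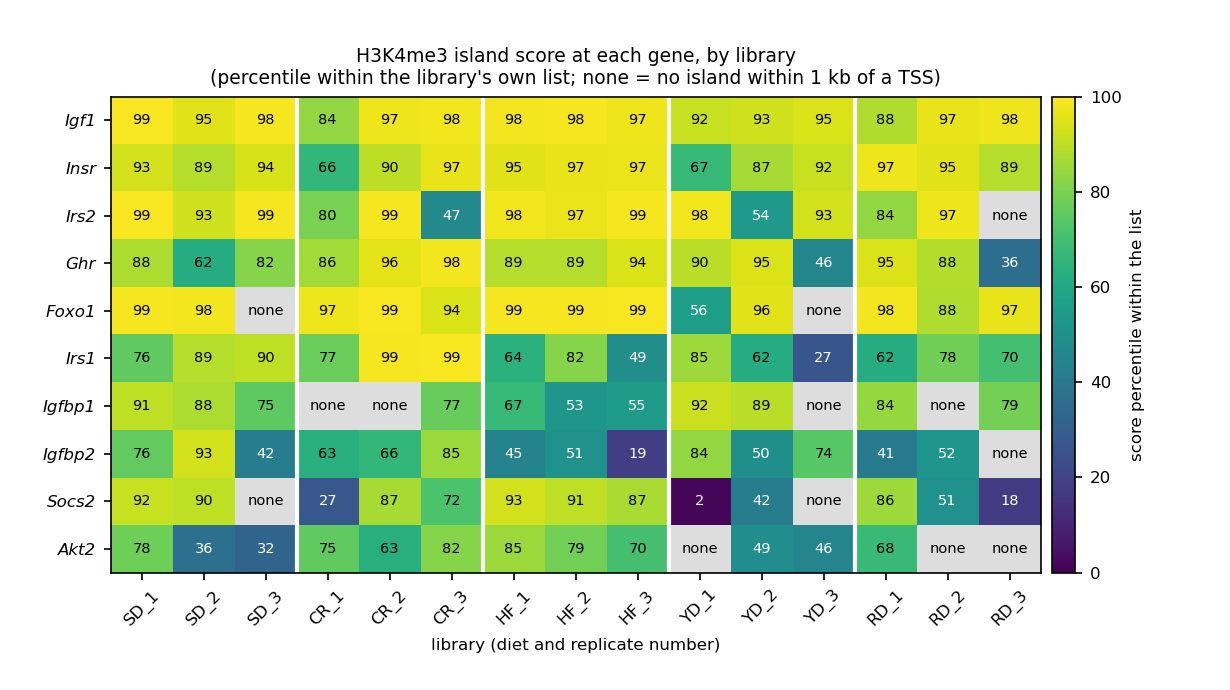
Heat map of the score percentile (colour and number, 0 to 100 within each library's own list) for the 10 genes (rows, ordered by their mean) in the 15 libraries (columns, grouped by diet), with grey for no island within 1 kb of a TSS. Igf1, Insr, Ghr and Irs1 are filled in all 15 columns, and the 13 grey cells of the 150 lie in the SD, CR, YD and RD columns with none in HF.

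Islands covered 137 of the 150 pairs of gene and library, or 91.3%, whereas 37.7% ± 11.1 (SD over 15 libraries) of protein-coding genes had an island in a given library. Every one of the 10 genes had one in at least 11 libraries, as did 30.2% of protein-coding genes. All 10 genes had an island in each HF mouse, and the mean was 9.33 ± 1.15 (SD, n = 3) genes in SD, 9.33 ± 0.577 in CR, 8.67 ± 1.53 in YD and 8.33 ± 1.53 in RD. Over the genome, too, the share of protein-coding genes with an island was lowest in the corn diets (YD 22.8%, RD 31.2%), intermediate in SD (39.6%) and CR (43.4%) and highest in HF (51.2%).

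Of the 13 pairs without an island, 4 missed the distance limit narrowly. An island began 1065 bp from the Foxo1 start in both SD_3 (4.0 kb wide, percentile 90.2) and YD_3 (0.6 kb, percentile 30.9). For Igfbp1 in YD_3 the distance was 1019 bp (0.8 kb, percentile 4.53) and for Irs2 in RD_3 it was 1458 bp (4.6 kb, percentile 93.0). In the other 9 pairs the nearest island lay 37548 bp or more away, so that no island was listed anywhere near Igfbp1 in CR_1, CR_2 and RD_2, Akt2 in YD_1, RD_2 and RD_3, Socs2 in SD_3 and YD_3, or Igfbp2 in RD_3.

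Ghr, the growth hormone receptor (chr15:3317760-3583492, - strand), had an island in every mouse. Its percentiles were 87.6, 62.1 and 81.9 in SD, 86.2, 95.95 and 98.2 in CR and 88.9, 89.1 and 94.3 in HF. In the corn diets they were 89.6, 94.8 and 46.1 (YD) and 94.9, 88.3 and 36.2 (RD). The HF mice all lay above the SD mice, and the lowest values were YD_3 and RD_3. Its width was 2.2, 1.6 and 2.2 kb in SD, 2.4, 5.0 and 3.8 kb in CR, 2.2, 3.0 and 3.8 kb in HF, 3.0, 1.8 and 1.0 kb in YD and 3.6, 2.6 and 1.8 kb in RD. Each CR mouse had a wider Ghr island than each SD mouse, a pattern found in 5.01% of the tested genes. The difference of 1.73 kb (SE 0.770) had an unadjusted p of 0.0387 and an adjusted p of 0.899 by limma with Benjamini-Hochberg adjustment.

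Annotated Ghr transcripts start at several clustered sites, and the islands did not sit on all of them. Which of these starts liver uses was not tested. The most upstream annotated start (chr15, 3583492) lay inside an island in 3 libraries, and starts 262 to 281 bp downstream in 4 each. Starts 304 and 305 bp downstream were inside one in 12, and those 896 and 1650 bp downstream in 14 and 13. Island edges fall in steps of 200 bp, so starts a few bases apart can lie on either side of an edge. The remaining annotated coding start, at 3471644, had no island within 1 kb in any library. Islands at Ghr were thus a mark of the upstream cluster, and the median island ran from 0.292 to 2.89 kb downstream of the outermost start.

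Socs2, which encodes a suppressor of growth hormone signalling that is itself induced by it (chr10:95385362-95417180, - strand), varied more than Ghr. Percentiles were 91.5, 90.4 and 0 in SD, 27.1, 87.1 and 71.8 in CR and 93.3, 90.5 and 87.5 in HF. They were 1.81, 41.9 and 0 in YD and 85.5, 50.7 and 17.7 in RD. The HF mice were close together while the values in each other diet spread widely, and SD and YD each contained a mouse with no island.
Widths were 3.8, 2.6 and 0 kb in SD, 1.0, 3.2 and 3.2 kb in CR, 5.0, 3.6 and 3.6 kb in HF, 2.0, 1.4 and 0 kb in YD and 1.8, 2.8 and 1.4 kb in RD, and the HF and SD ranges overlapped. All islands within 1 kb of its starts belonged to the start cluster at 95414827 to 95417180, with a further start group at 95412734 to 95413109 reached in only 2 libraries.

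Igf1 encodes the growth factor that liver secretes in response to growth hormone (chr10:87858265-87937042, + strand), and its percentile varied least among the 10 genes over the 15 mice, though its width did not. Percentiles were 98.98, 95.4 and 98.5 in SD, 83.9, 97.4 and 97.8 in CR, 98.2, 98.5 and 97.3 in HF, 91.7, 92.6 and 94.9 in YD and 88.1, 96.5 and 97.6 in RD. The 3 YD mice fell just short of the 3 SD mice without overlap, as they did at 19.9% of the tested genes, and the difference was -4.57 points (SE 3.84, limma adjusted p = 0.505). Widths ranged from 3.8, 3.6 and 6.8 kb in SD through 3.8, 5.6 and 4.4 kb in CR and 4.8, 4.4 and 7.8 kb in HF to 4.6, 3.0 and 2.2 kb in YD and 1.0, 4.4 and 3.4 kb in RD, and overlapped between all diets.

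The Igf1 islands lay mostly downstream of the outermost annotated start. That start lay inside an island in 3 libraries, whereas the starts 803 to 1765 bp downstream of it were inside one in 14 or 15 and the start 3064 bp downstream in 12. The median Igf1 island reached from 0.736 to 4.94 kb downstream of the outermost start.

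Igfbp1 encodes an IGF-binding protein of hepatocytes whose gene is induced in fasting and switched off by insulin (chr11:7197782-7202546, + strand). Percentiles were 90.5, 87.7 and 75.04 in SD, 0, 0 and 76.7 in CR and 66.99, 53.1 and 55.03 in HF, where 0 stands for no island. In YD they were 92.1, 89.5 and 0 and in RD 84.1, 0 and 79.2. Its island was absent in 2 of 3 CR mice and present in all SD and HF mice. The share of tested genes with such a contrast was not counted. CR_1 had the fewest recovered reads, about 5590000 (YD_1 left out). CR_2 also lacked the island but had more recovered reads than SD_2 and SD_3, which had it. The part of read number in the missing islands was not tested. Every HF value lay below every SD value, a pattern seen in that direction at 0.575% of the tested genes.

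The CR and SD means of Igfbp1 were 25.6 ± 44.3 and 84.4 ± 8.25 (SD, n = 3). The difference of -58.8 points (SE 28.4) did not pass the test (limma, unadjusted p = 0.0585, adjusted p = 0.976). For HF against SD the difference was -26.1 points (SE 28.4, limma adjusted p = 0.792). The CR mice without the island, CR_1 and CR_2, are also those whose library names have the PATChIP form, and among ChIP-form names alone, with CR_3 the only CR mouse left, the CR difference was -7.69 points. RD_2, which also lacked the island, has the ChIP form of name. The part of the name form in this result was not tested further. The median Igfbp1 island began 0.019 kb past its TSS, so that the TSS base itself was inside an island in only 3 libraries. Requiring the TSS inside the island turned both differences positive, to 25.6 points for CR and 36.0 points for HF.

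Igfbp1 widths were 3.0, 2.6 and 2.2 kb in SD, 0, 0 and 2.6 kb in CR, 2.2, 1.8 and 2.6 kb in HF, 3.6, 1.4 and 0 kb in YD and 2.4, 0 and 2.4 kb in RD. Where an island was listed in SD, CR or HF its width was alike, 1.8 to 3.0 kb.

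Igfbp2 encodes a further hepatic IGF-binding protein (chr1:72824503-72852474, + strand). Percentiles were 75.9, 93.02 and 42.04 in SD, 63.2, 66.2 and 85.2 in CR, 44.6, 51.3 and 18.6 in HF, 83.8, 49.98 and 73.99 in YD and 41.2, 52.5 and 0 in RD. The RD mean of 31.2 ± 27.6 lay -39.1 points from the SD mean of 70.3 ± 25.9 (SE 17.8), with an unadjusted p of 0.0464 and an adjusted p of 0.665 by limma, and the ranges overlapped. Without RD_3, the mouse with no island, the difference was -23.5 points. Widths were 2.4, 2.4 and 1.8 kb in SD, 1.8, 2.0 and 2.4 kb in CR, 1.8, 1.4 and 0.8 kb in HF, 2.8, 1.0 and 1.4 kb in YD and 1.6, 2.4 and 0 kb in RD. The most upstream Igfbp2 start was inside no island and the start 819 bp downstream was inside one in 14 libraries, every library with an Igfbp2 island.

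**Figure D2:**
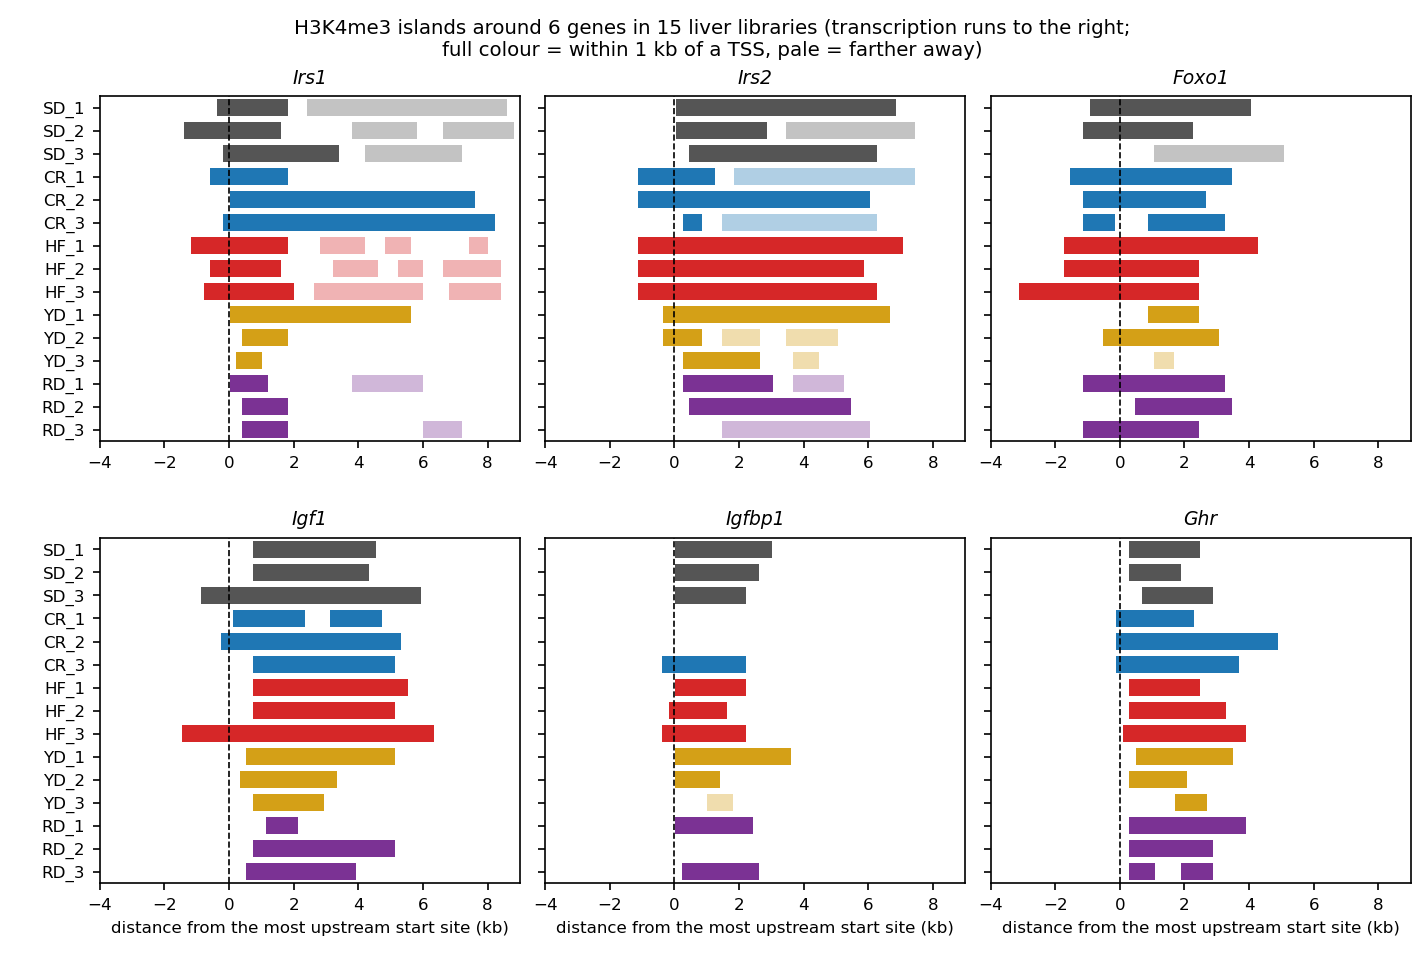
Maps of the islands (bars) in each of the 15 libraries (rows, coloured by diet) around 6 genes, with the distance from the most upstream start site in kb on the horizontal axis and transcription to the right. Full colour marks islands within 1 kb of a TSS and pale colour islands farther away. At Irs1 single bars of 7.6 and 8.4 kb in CR_2 and CR_3 cover ground that is split into full and pale bars in the SD and HF rows, and most Igf1 bars begin 0.736 kb or so past the dashed line.

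Insr, the insulin receptor (chr8:3122061-3279617, - strand), carried an island in every mouse. Percentiles were 93.1, 88.9 and 94.1 in SD, 66.3, 90.1 and 96.7 in CR, 95.4, 96.7 and 96.9 in HF, 66.99, 86.6 and 91.7 in YD and 97.4, 95.5 and 88.99 in RD. All HF values exceeded all SD values, by 4.26 points in the mean (SE 7.37, limma adjusted p = 0.917), and the lowest values were CR_1 and YD_1. Widths were 2.0, 4.2 and 4.0 kb in SD, 0.8, 2.8 and 3.4 kb in CR, 4.2, 4.0 and 4.0 kb in HF, 2.2, 1.0 and 2.2 kb in YD and 3.6, 4.0 and 1.8 kb in RD. Its islands sat over the upstream start pair, inside which the TSS fell in 12 to 14 libraries, and none of the internal starts at 3192717, 3181851 and 3159555 had an island within 1 kb in any library.

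Irs1, the adaptor that passes the signal of the insulin and IGF1 receptors on (chr1:82233101-82291416, - strand), also had an island in every mouse. Percentiles were 75.6, 88.96 and 90.3 in SD, 76.96, 98.5 and 99.1 in CR, 63.8, 81.9 and 49.4 in HF, 85.5, 62.1 and 26.7 in YD and 61.99, 78.2 and 70.3 in RD. The highest were CR_2 and CR_3 and the lowest YD_3. Widths were 2.2, 3.0 and 3.6 kb in SD, 2.4, 7.6 and 8.4 kb in CR and 3.0, 2.2 and 2.8 kb in HF. In YD they were 5.6, 1.4 and 0.8 kb and in RD 1.2, 1.4 and 1.4 kb. CR_2 and CR_3 had the widest Irs1 islands of the 15 mice, and all 3 RD islands were narrower than all SD islands, as at 8.07% of the tested genes.

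The mean width of Irs1 was 6.13 ± 3.26 kb (SD, n = 3) in CR and 2.93 ± 0.702 kb in SD, a difference of 3.2 kb (SE 1.33) with an unadjusted p of 0.0289 and an adjusted p of 0.871 by limma. CR_1 did not share the wide island, and without it the difference was 5.07 kb (limma adjusted p = 0.0855). This difference turned on how the lists divide the enriched stretch. When all islands over the gene were summed, an alternative added after the lists had been seen, Irs1 had 8.4, 7.2 and 6.6 kb in SD, 2.4, 7.6 and 8.4 kb in CR and 5.8, 6.2 and 7.8 kb in HF, and the CR difference became -1.27 kb. The same sum was 5.6, 1.4 and 0.8 kb in YD and 3.4, 1.4 and 2.6 kb in RD. In SD and HF the islands over the gene were listed in pieces, of which those farther than 1 kb from the TSS were not counted.

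Irs2 encodes the other hepatic adaptor of the insulin receptor (chr8:10984681-11008458, - strand), whose gene is raised by FOXO1 in fasting. Percentiles were 98.9, 92.9 and 98.5 in SD, 80.03, 98.5 and 46.9 in CR, 97.7, 96.9 and 98.8 in HF, 97.97, 54.2 and 93.05 in YD and 83.8, 97.5 and 0 in RD. Most values lay above 90, with low ones in CR_3 and YD_2 and none in RD_3, which has the downstream island described above. Widths were 6.8, 2.8 and 5.8 kb in SD, 2.4, 7.2 and 0.6 kb in CR, 8.2, 7.0 and 7.4 kb in HF, 7.0, 1.2 and 2.4 kb in YD and 2.8, 5.0 and 0 kb in RD. Each HF island was wider than each SD island, as at 16.2% of the tested genes, with means of 7.53 ± 0.611 kb and 5.13 ± 2.08 kb and a difference of 2.40 kb (SE 1.75, limma adjusted p = 0.403). Without SD_2, where a second island lay beyond the distance limit, the difference was 1.23 kb.

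The GENCODE TSS of Irs2 was inside the island in 7 libraries, among them all 3 HF mice and no SD mouse. The SD islands began 0.058, 0.058 and 0.458 kb past it, and a gap of 0.058 kb is less than 1 window of 200 bp. How many of all genes show such a split was not counted. More protein-coding genes had an island in HF (51.2%) than in SD (39.6%). Over Irs2 islands a median of 59.3% of the bases were coding sequence, against 40.6% for Irs1 and at most 21.5% for the other genes. The coding sequence of Irs2 begins close to the GENCODE start used here, and the RefSeq start lies upstream of that one. When all islands over Irs2 were summed, the diets were closer, at 6.47 ± 0.577 kb (SD, n = 3) in SD, 6.87 ± 1.33 kb in CR, 7.53 ± 0.611 kb in HF, 4.73 ± 2.00 kb in YD and 4.67 ± 0.306 kb in RD.

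Akt2 encodes the main insulin-activated AKT kinase of liver (chr7:27591552-27640826, + strand) and had the lowest mean percentile of the 10 genes. Percentiles were 78.1, 36.3 and 32.3 in SD, 75.4, 62.96 and 81.7 in CR, 84.9, 78.8 and 70.5 in HF, 0, 49.2 and 45.5 in YD and 67.6, 0 and 0 in RD. Values above 60 were found in 1 SD, 3 CR, 3 HF and 1 RD mice. Widths were 1.2, 1.0 and 0.8 kb in SD, 1.8, 3.4 and 1.0 kb in CR, 3.0, 2.0 and 2.8 kb in HF, 0, 0.6 and 0.6 kb in YD and 2.0, 0 and 0 kb in RD. All HF islands were wider, and all YD values smaller, than all SD values, which held at 16.2% and 14.6% of the tested genes.

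The HF mean of Akt2 was 2.60 ± 0.529 kb against 1.00 ± 0.2 kb in SD, a difference of 1.60 kb (SE 0.651) with an unadjusted p of 0.0257 and an adjusted p of 0.166 by limma. Among the ChIP-form names, where HF_1 is the only HF mouse and its spread was taken from the other diets, the difference was 2.0 kb with an adjusted p of 0.00429 by limma. Of the annotated Akt2 starts, those 816 and 906 bp downstream of the outermost were inside an island in 12 libraries and the outermost in 3. The start groups from 27596830 onward had no island within 1 kb in any library.

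Foxo1 encodes the transcription factor that insulin restrains through AKT (chr3:52268336-52353221, + strand). Percentiles were 98.6, 98.3 and 0 in SD, 97.4, 99.05 and 94.2 in CR, 98.7, 98.7 and 98.96 in HF, 56.1, 95.6 and 0 in YD and 98.4, 88.1 and 96.6 in RD. Foxo1 ranked above 94 in all CR and HF mice and was low or without an island in YD_1, YD_3 and SD_3. Widths were 5.0, 3.4 and 0 kb in SD, 5.0, 3.8 and 3.4 kb in CR, 6.0, 4.2 and 5.6 kb in HF, 1.6, 3.6 and 0 kb in YD and 4.4, 3.0 and 3.6 kb in RD. The HF and SD means were 5.27 ± 0.945 kb and 2.80 ± 2.55 kb, a difference of 2.47 kb (SE 1.14) with an unadjusted p of 0.0454 and an adjusted p of 0.217 by limma. It was 1.07 kb without SD_3 and 1.13 kb with a distance limit of 3 kb, which admits the SD_3 island. Foxo1 islands reached farthest upstream of the 10 genes, with a median of 70.6% of their length downstream of the start.

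**Figure D3:**
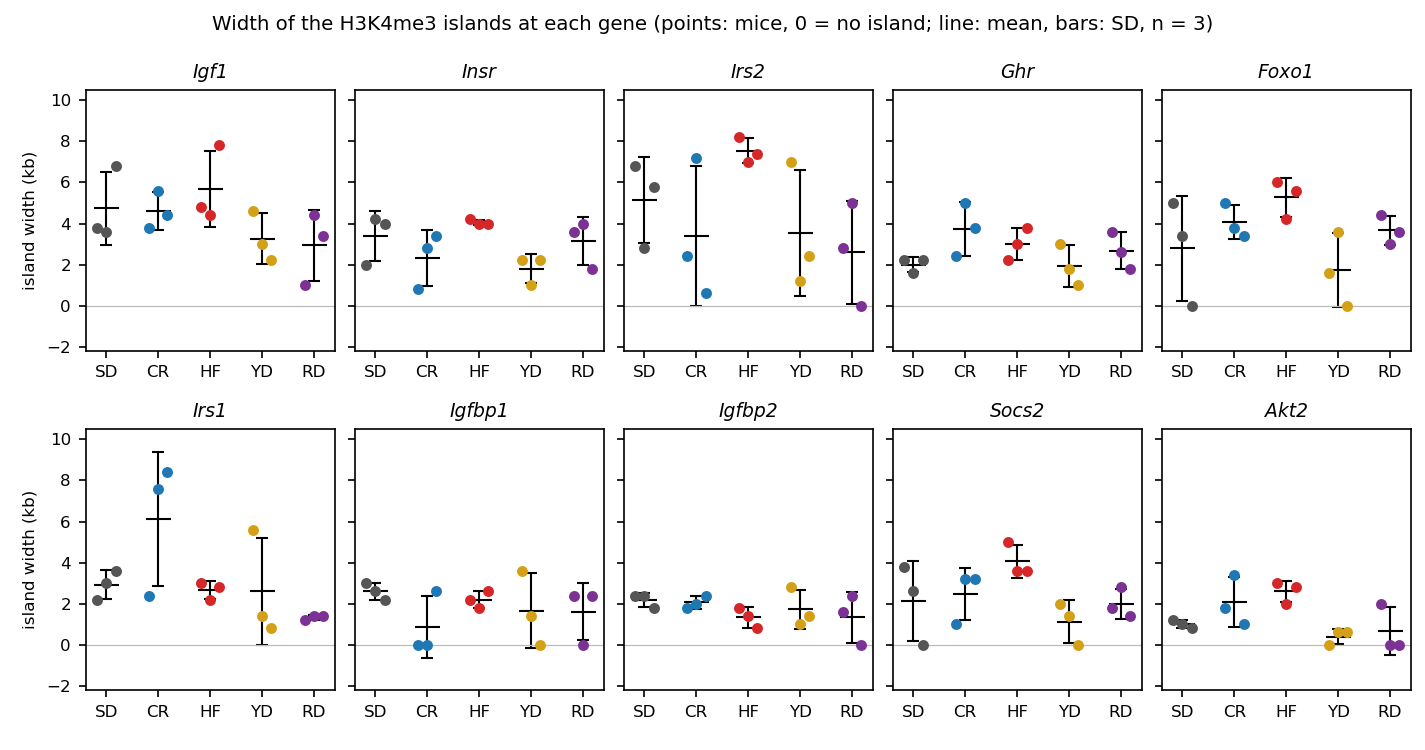
Width in kb of the islands at each gene (points, 1 per mouse, 0 for no island) by diet, with the mean (line) and SD (bars, n = 3). The HF points of Akt2, 2.0 to 3.0 kb, and of Irs2, 7.0 to 8.2 kb, lie above the SD points, and the CR points of Irs1 hold the widest islands of that gene.

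Across the 10 genes no diet comparison gave a call. In CR against SD, 0 of 10 genes passed at an adjusted p under 0.05 (limma, Benjamini-Hochberg over 13044 genes) by percentile, where 0.0153% of all tested genes did, and 0 of 10 by width, where 0.00767% did. The median difference was 1.28 points over the 10 genes and 3.77 over all tested genes, with 6 of 10 above 0. For width it was 0.1 kb against 0.2 kb, and 2 of 10 genes, Ghr and Irs1, had an unadjusted p under 0.05 there.

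In HF against SD the medians moved upward over the whole genome, by 11.3 points and 0.733 kb, and those of the 10 genes were 2.65 points and 0.967 kb. None of the 10 passed by percentile (1.76% of all tested genes did) or by width (3.19%), and 0 and 2 of them had an unadjusted p under 0.05. Foxo1, Ghr and Insr were higher by percentile in every HF mouse than in every SD mouse, as were 13.8% of all tested genes. The Foxo1 difference, 33.2 points, was 0.357 without SD_3, and those of Ghr (13.6) and Insr were 5.99 and 2.69 without SD_2. Kupffer cell, endothelial and stellate markers also had their highest numbers of islands in HF, whereas bile duct markers numbered at most 2 of 5 in a CR mouse and 1 in an HF mouse, and lymphocyte markers at most 1 of 6 in SD, CR, HF and RD mice. Of 6 Kupffer cell markers 0 to 3 had an island in the HF mice and 0 in any other diet, with a summed width of 0 to 5.6 kb in HF. Endothelial markers numbered 3 to 6 of 6 in HF (5.4 to 14.6 kb) and 0 to 4 in SD (0 to 8.6 kb), and stellate markers 1 to 3 of 6 in HF (2.0 to 12.0 kb) and 0 to 1 in SD (0 to 3.4 kb). Hepatocyte markers were at 8 of 8 in HF (22.8 to 36.4 kb) and 6 to 8 in SD (14.0 to 27.6 kb). The part of cell composition in the HF values was not tested.

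In YD against SD all 10 genes had a lower mean percentile and a smaller mean width, but so did most of the genome. On the scale of the percentile among all protein-coding genes of the library, 4 of the 10 (Ghr, Igfbp2, Irs1 and Insr) turned above 0, and 2 did with the log2 score share, while all 10 stayed narrower by log2 width. The median difference was -15.0 points over the 10 genes and -18.7 over all tested genes, and -0.967 kb against -0.6 kb for width. No gene of the 10 passed by percentile (2.14% of all tested genes did) or by width (0%), and none had an unadjusted p under 0.05. The lowest adjusted p was that of Irs1 by percentile, 0.25 by limma, at -26.9 points (SE 13.3), which was -11.2 points without YD_3 and -40.6 without YD_1. Markers of Kupffer, endothelial, stellate, bile duct and lymphoid cells had 0 islands in every YD mouse. In SD there were 0 to 4 of 6 endothelial and 0 to 1 of 6 stellate markers, 0 to 1 bile duct and lymphocyte markers and 0 Kupffer cell markers. RD was close to YD, with 0 Kupffer cell, stellate and bile duct markers, 0 to 2 endothelial and 0 to 1 lymphocyte markers. Hepatocyte markers were at 6 to 8 of 8 in both YD and SD. The part of cell composition in the YD values was not tested.

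In RD against SD the median was -12.1 points over the 10 genes against -5.96 over all tested genes, with 8 of 10 below 0, and -0.6 kb against -0.333 kb. No gene of the 10 and none of all tested genes passed by either measure in limma (0%), with 1 of the 10, Igfbp2, and 961 of all tested genes at an unadjusted p under 0.05 by percentile, and 0 and 890 by width. Irs2 (-36.3 points, SE 20.6) and Igfbp2 were farthest below SD and Foxo1 farthest above it (28.7 points, SE 24.1). The Igfbp2 difference was smaller, at -23.5 points, without RD_3, the mouse with no Igfbp2 island. Those of Irs2 and Foxo1 depended on a mouse with no island within the distance limit. The Irs2 difference was -6.12 points without RD_3, and the Foxo1 difference turned to -4.08 points without SD_3. Leaving out other mice widened them, to 45.2 and 45.1 points for Foxo1 without SD_1 and SD_2 and to -54.9 for Irs2 without RD_2.

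RD against YD compares the corn diets with and without anthocyanins. The median was -1.34 points over the 10 genes and 5.33 over all tested genes, with 5 genes on either side of 0, and 0.1 kb against 0.133 kb. None of the 10 passed by percentile (1.04% of all tested genes did) or by width (0%). Foxo1 was 43.8 points higher in RD (SE 24.1, limma adjusted p = 0.546) and Igfbp2 differed by -38.05 points (SE 17.8, limma adjusted p = 0.425). Without YD_3 the Foxo1 difference was 18.5 points and without YD_2 66.3, and without RD_3 that of Igfbp2 was -22.4. CR, HF, YD and RD share the same 3 SD mice as their control, so these comparisons are not independent.

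**Figure D4:**
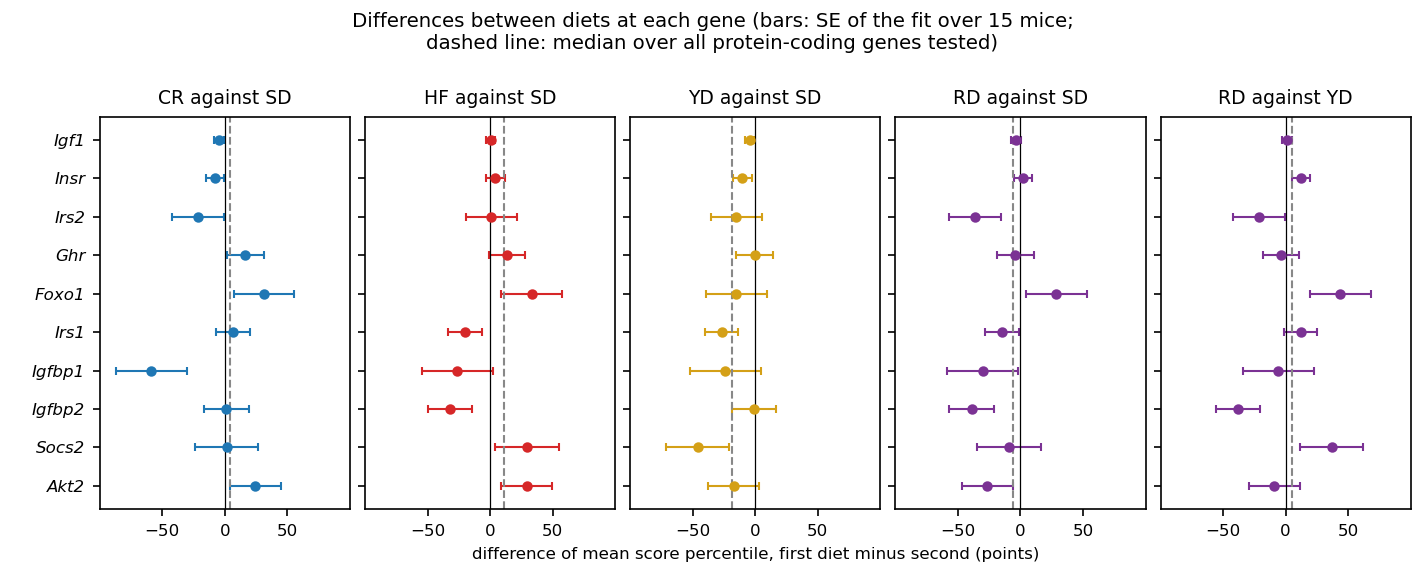
Difference of the mean score percentile (points, horizontal axis) between diets for the 10 genes (rows) in 5 comparisons (panels), with the SE of the fit over 15 mice as bars. The dashed line is the median over all 13044 tested genes, 11.3 points in HF against SD and -18.7 in YD against SD, and all 10 points for YD against SD lie below 0, on both sides of that line, although 4 of them were above 0 on the scale of the percentile among all protein-coding genes.

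Tested for any difference among the 5 diets, 0 of the 10 genes passed by percentile (9.56% of all tested genes did) and 0 by width (14.7%). The lowest adjusted p by limma were 0.0729 for Akt2 and 0.0977 for Irs1, both by width. No gene of the 10 had all 3 HF mice above the 12 other mice by percentile (2.51% of all tested genes did) or width (3.89%), or all 3 YD mice below them (3.53% and 1.76%). The standard errors of the differences were 3.84 to 28.4 points and 0.642 to 1.75 kb, and a p above the threshold does not show that the diets were alike.

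Of 49 further genes of these pathways, 12 had an island in all 15 libraries, 28 in 5 to 14 and 9 in fewer than 5. The 7 genes without an island in any library were Igf2, the growth factor of fetal liver, the binding proteins Igfbp3, Igfbp5 and Igfbp6, the receptor adaptor Grb10, the FOXO family member Foxo6 and the insulin-degrading enzyme Ide. Igf2r had one in 4 libraries. Akt2 had an island in 12 libraries and the related kinase gene Akt1 in 8, and of the FOXO genes Foxo3 had one in 15, Foxo1 in 13, Foxo4 in 10 and Foxo6 in none.

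Some of these 49 genes, of which 42 could be tested, did differ between diets. By percentile 0 of 42 passed in CR, HF or RD against SD and in RD against YD, while 4 (9.52%) were lower in YD than in SD, where 2.14% of all tested genes passed in either direction. Gsk3b, a kinase that AKT inhibits, had percentiles of 98.1, 99.01 and 94.1 in SD and 67.4, 76.98 and 82.2 in YD, a difference of -21.5 points (SE 4.16, limma adjusted p = 0.0218). Shc1, an adaptor of the insulin and IGF1 receptors, had 93.5, 95.03 and 91.9 in SD and 64.4, 30.7 and 48.5 in YD (-45.6 points, SE 9.27, limma adjusted p = 0.0252). Sh2b1, an adaptor of JAK2 and the insulin receptor, differed by -34.1 points (SE 7.66, limma adjusted p = 0.0374) and Rptor, the raptor subunit of mTORC1, by -70.5 points (SE 16.9, limma adjusted p = 0.0492). The median over the 42 genes was -34.5 points against -18.7 over all tested genes. All 4 lost the call when SD_1 or SD_2 was left out (for Gsk3b, limma adjusted p = 0.109 and 0.0937). The call was lost in 6 of 30 alternatives for Gsk3b, 7 for Shc1 and 17 each for Sh2b1 and Rptor. None of the 4 passed when the percentile was taken among all protein-coding genes of the library in place of the list, where no gene at all passed in this comparison.

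By width 1 of the 42 (2.38%, against 3.19% of all tested genes) passed in HF against SD, the mTORC2 subunit Rictor, with 5.0, 2.8 and 4.0 kb in HF and 0, 1.2 and 0 kb in SD (3.53 kb, SE 0.806, limma adjusted p = 0.0262), and 0 in the other comparisons. That call was lost in 7 of 30 alternatives, among them without SD_1, SD_3, HF_1 or HF_3 (limma adjusted p = 0.0737 to 0.126). All 42 had a larger mean width in HF, with a median of 1.03 kb against 0.733 kb over all tested genes. Across the 5 diets 7 of the 42 (16.7%) differed by width and 6 (14.3%) by percentile, against 14.7% and 9.56% of all tested genes. Pik3r1, the regulatory subunit of the insulin-activated PI3-kinase, differed in width (limma adjusted p = 0.0144), a call kept in 30 of 30 alternatives. Its islands were 8.8, 8.8 and 8.8 kb wide in HF, 5.2, 6.0 and 5.0 kb in SD and 2.8, 7.8 and 9.0 kb in CR, and 3.2, 2.0 and 2.4 kb in YD and 2.0, 2.6 and 3.0 kb in RD, so that HF and SD mice all had wider islands than any YD or RD mouse. How many of all tested genes show that split was not counted. Their median width differences from SD had the same directions, 0.733 kb in HF, -0.6 kb in YD and -0.333 kb in RD. Prlr, the prolactin receptor (limma adjusted p = 0.0175), and Gsk3a (limma adjusted p = 0.0185) also differed in width among diets, as did Pik3r2, Rictor, Pik3cb and Tsc2. By percentile Gsk3b, Sh2b1, Shc1, Pik3cb, Sh2b2 and Rptor did so. These calls were lost more often, by width in 7 of 30 alternatives for Gsk3a, 8 for Prlr, 9 for Pik3r2, 11 for Rictor, 17 for Tsc2 and 18 for Pik3cb, and by percentile in 5 for Gsk3b, 7 for Sh2b1, 11 for Shc1, 13 for Pik3cb, 15 for Rptor and 17 for Sh2b2. Mice whose omission alone ended such a call were found in all 5 diets.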

How the data were processed

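Liver chromatin of 15 mice was profiled for H3K4me3. The authors aligned 50 bp single reads to mm10 with bwa, kept on chromosomes 1 to 19 and X only the non-duplicate reads with a MAPQ of at least 1 (samtools), and called islands in each library with SICER2 (window 200 bp, gap 400 bp, fragment 200 bp, FDR under 0.05), without pooling mice. The deposited score of an island is a sum over its windows of the negative log probability of the reads, not scaled between libraries, and was therefore used as a percentile within its list. Starts were counted from 0 in the files and are given from 1 here.

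TSSs were those of GENCODE M21 (139486 transcripts of 53843 genes). Score percentile and summed width were fitted over all 13044 protein-coding genes with an island in at least 1 library, with limma 3.58.1 in R 4.3.3 (a mean per diet over 15 mice, trended empirical Bayes) and Benjamini-Hochberg adjustment at 0.05. All other steps used Python 3.11.15 with pandas 2.3.3, numpy 2.4.6 and scipy 1.17.1, and matplotlib 3.10.9 for the plots. The fits and the assignment of islands were tested on simulated data. Reads per list were recovered from the steps of the score, with an effective genome fraction of 0.74, and give no depth per island, so errors are those between mice. Groups and replicate numbers were taken from the sample labels. An exact test of 3 mice against 3 cannot go below p = 0.1, so single genes were tested only in the fit over all genes. Comparisons were CR, HF, YD and RD against SD, RD against YD, and any difference among diets. The 10 genes, the 49 pathway genes, the marker lists and the motifs were chosen with earlier results of these data known. All 10 genes are named, and of the pathway genes those called (at most 10 by adjusted p) and those with islands in fewer than 5 libraries, except that some listed genes are not reported here by name.

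Alternatives were the distance to the TSS (0 or 3 kb), coding transcripts only, the 7825 highest-scoring islands of each list, islands at or above the median score or at least 600 bp wide, other scales (log2 of the scaled score + 1, percentile among coding genes, log2 of width + 0.2 kb), other gene filters, no trend, the replicate block, the form of the library name, and the omission of each mouse. Added after the lists had been seen were all islands over the gene and the omission of YD_1 with RD_2. Read counts, signal tracks and gene expression were not used here.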

Additional observations from a re-analysis of the deposited data

How the results depend on the processing

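The count of the 10 genes that passed was 0 in each of the 12 combinations of comparison and measure, and it stayed 0 in all alternatives but 8, all of them by width. For HF against SD it was 1 with the TSS inside the island (Irs2, 7.53 kb, a requirement that sets all 3 SD widths to 0) and 1 among ChIP-form names (Akt2). For any difference among diets it was 1 with the TSS inside the island (Irs2), 1 with the same number of highest-scoring islands (Igfbp2, limma adjusted p = 0.0374) and 1 among ChIP-form names (Akt2), and it ranged from 0 to 1 when single mice were left out, with Irs1 passing without CR_1 (limma adjusted p = 0.0119) or YD_1 (0.0497) and Akt2 without RD_1 (0.0435). The mean number of the 10 genes with an island per library, 9.13, became 7.33 with the TSS inside the island and 8.0 with islands at or above the median score. Direction was followed only for selected differences of single genes, and it turned in 7 cases among them. Foxo1 by percentile in RD against SD was at -0.631 points with the TSS inside the island and at -1.33 with the TSS within 3 kb. It was at -4.08 without SD_3 (-4.08 to 45.2 over the omission of single mice). Irs1 by percentile in YD against SD was at 1.05 points with the percentile among coding genes. Igfbp1 by percentile was at 25.6 points in CR and 36.0 points in HF against SD with the TSS inside the island. Irs1 by width was at -1.27 kb in CR against SD with all islands of the gene. Differences outside this selection turned too, such as those of Ghr, Igfbp2 and Insr in YD against SD with the percentile among coding genes. In RD against YD 5 of the 10 genes were below 0 by percentile, and 8 were with the log2 score share. The cause was not tested beyond what the alternative itself changes.

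Same-numbered mice are different animals that share only a number. Deviations of same-numbered mice from their diet means had a mean correlation of -0.0042 by percentile and -0.0377 by width, and 4 and 2 of 15 libraries were closest to their own number. With the replicate block, 0 of the 10 genes passed in each comparison, and the count over all tested genes for any difference among diets was 655 instead of 1247 by percentile and 1174 instead of 1911 by width.

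Counts over all tested genes moved as well, and their size cannot be set against a count out of 10. By percentile they were 0 to 968 in CR, 22 to 1957 in HF, 0 to 881 in YD and 0 to 57 in RD against SD, 0 to 369 in RD against YD and 61 to 2844 for any diet. By width they were 0 to 695, 82 to 2293, 0 to 653, 0 to 55, 0 to 124 and 314 to 3088 in the same order. Among ChIP-form names only HF_1 and CR_3 remain of their diets, and their spread is assumed to be that of the other groups. The depth behind a single island is unknown, so an island missing from a list may lie just under the authors' threshold.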
